A study of Mus musculus with 6 samples.

Results

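Ppara, Acaa2, Cpt1a, Pex11a, Apoe and Gpi1 are 6 genes of lipid and energy metabolism among the 50 gene probes of a mouse circRNA microarray. The 6 genes were chosen by name, each through its probe: A_51_P348334 for Ppara, A_51_P125260 for Acaa2, A_51_P427674 for Cpt1a, A_51_P456957 for Pex11a, A_51_P171999 for Apoe and A_51_P426886 for Gpi1. The probes carry RefSeq transcript accessions, in that order NM_011144, NM_177470, NM_013495, NM_011068, NM_009696 and NM_008155, and these gave the symbols. Each probe had 10 spots on every array. The study asked which circRNAs differ between dividing muscle precursors and fused muscle cells, and the gene probes lie beside its 14236 circRNA probes. The cells were C2C12, a mouse line of myoblasts that stop dividing and fuse into myotubes when serum is lowered. The myoblast group (3 arrays) was kept in medium with 10% fetal bovine serum, and the myotube group (3 arrays) came from confluent cells moved to medium with 2% horse serum. The sources used here do not give the time in horse serum. All arrays are of 1 cell line, per the labels, and the study describes its experiments within a group as independent.

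Muscle cells draw energy from sugars and from fatty acids, and the genes here stand at separate points of that supply. Ppara encodes PPAR-alpha, a nuclear receptor that is switched on by fatty acids and turns on genes of fatty acid use by binding, with its partner RXR, to paired copies of a short DNA motif. Cpt1a and Acaa2 encode enzymes of mitochondrial fatty acid oxidation, at its entry and at the last step of each round, and Pex11a a membrane protein through which peroxisomes multiply. Cpt1a and Pex11a are textbook PPAR-alpha targets in liver. Apoe encodes a lipoprotein component that carries cholesterol and other lipids, and Gpi1 the enzyme that turns glucose 6-phosphate into fructose 6-phosphate in glycolysis.

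The promoters of the receptor gene and of its textbook targets are shown because PPAR-alpha acts through the motif AGGTCA. They are the 250 bases before the RefSeq transcript start in GRCm38.p6, 5′ to 3′ on the gene's strand. Capitals mark AGGTCA or its reverse complement TGACCT. The windows are chr15:85735526-85735775 on the plus strand for Ppara, chr19:3323051-3323300 on the plus strand for Cpt1a and chr7:79743132-79743381 on the minus strand for Pex11a.
Ppara: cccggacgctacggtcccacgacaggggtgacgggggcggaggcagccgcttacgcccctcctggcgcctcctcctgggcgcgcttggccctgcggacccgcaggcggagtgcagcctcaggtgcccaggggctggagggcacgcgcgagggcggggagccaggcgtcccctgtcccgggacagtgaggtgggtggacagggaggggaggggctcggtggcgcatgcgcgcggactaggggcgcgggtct
Cpt1a: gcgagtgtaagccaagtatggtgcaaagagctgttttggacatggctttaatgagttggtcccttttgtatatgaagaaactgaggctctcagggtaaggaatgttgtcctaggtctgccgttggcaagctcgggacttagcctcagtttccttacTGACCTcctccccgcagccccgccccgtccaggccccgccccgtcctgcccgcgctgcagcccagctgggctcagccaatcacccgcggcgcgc
Pex11a: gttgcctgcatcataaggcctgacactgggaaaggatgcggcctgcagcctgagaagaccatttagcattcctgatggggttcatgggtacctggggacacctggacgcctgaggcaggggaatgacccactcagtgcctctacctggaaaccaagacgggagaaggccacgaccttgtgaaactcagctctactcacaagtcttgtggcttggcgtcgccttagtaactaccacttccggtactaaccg

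The promoter search left out 1 chromosome. On the others, a RefSeq promoter was matched for 5 of the 6 genes, all but Acaa2. Of those 5 genes only Cpt1a held the motif on either strand, 1 match whose far end lay 94 bases before the start. For comparison, 14% of 32851 mouse promoter windows of the same length on the chromosomes searched held it (4607 windows). The receptor's full site is 2 copies of AGGTCA on 1 strand with 1 base between them. It was in none of the windows of the 5 genes and in 11 of the 32851 windows. These are letter matches in short windows and say nothing on binding.

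The signal of each spot is given as the scanner software's processed signal, a linear intensity after background subtraction, and is a mean over the spots of an array unless stated. The arrays differed in general brightness. The 75th percentile of the processed signal over all probes was 33.2, 36.4 and 30.2 on the arrays of myoblast 1, 2 and 3 and 37.6, 53.3 and 55.0 on those of myotube 1, 2 and 3. The group means were 33.3 ± 3.12 and 48.7 ± 9.59 (n = 3 arrays a group, SD), a log2 difference of 0.53. Log2 values were therefore taken relative to that percentile, and a difference of 0 stands for a gene that moved as the percentile did. The arrays lay on 1 slide in rows, per the file headers, with the myoblast arrays and myotube 1 in the first row and myotubes 2 and 3 in the second. Differences within the first row are given beside those of all arrays, and there myotube 1 stands alone against the myoblasts. The sources used here do not say whether linear RNA was digested first, and the signals may stand for messenger RNA only in part. In bulk RNA, fewer cells with a transcript and less of it per cell cannot be told apart.

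None of the 5 genes that could be tested passed the threshold between myoblasts and myotubes, an adjusted p of 0.05 in limma with Benjamini-Hochberg adjustment over 26 gene probes. Over all tested gene probes 10 of 26 passed (38.5%), 5 higher (19.2%) and 5 lower (19.2%) in myotubes. The share of calls that were higher was 28.6% (2 of 7) after normexp background correction and as much without background subtraction, and 66.7% (6 of 9) without scaling between arrays. Without that scaling the median difference of the 26 gene probes was 0.34, and after normexp with quantile normalization it was -0.09. Ppara was not tested, since it was well above background on all 3 arrays of neither group. The 5 tested genes had a median log2 difference of -0.29, with 4 below 0, where the 26 gene probes had a median of -0.20, with 17 below 0. Groups did not overlap for 1 of the 5, Pex11a, and for 12 of the 26 (46.2%).

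**Figure D1:**
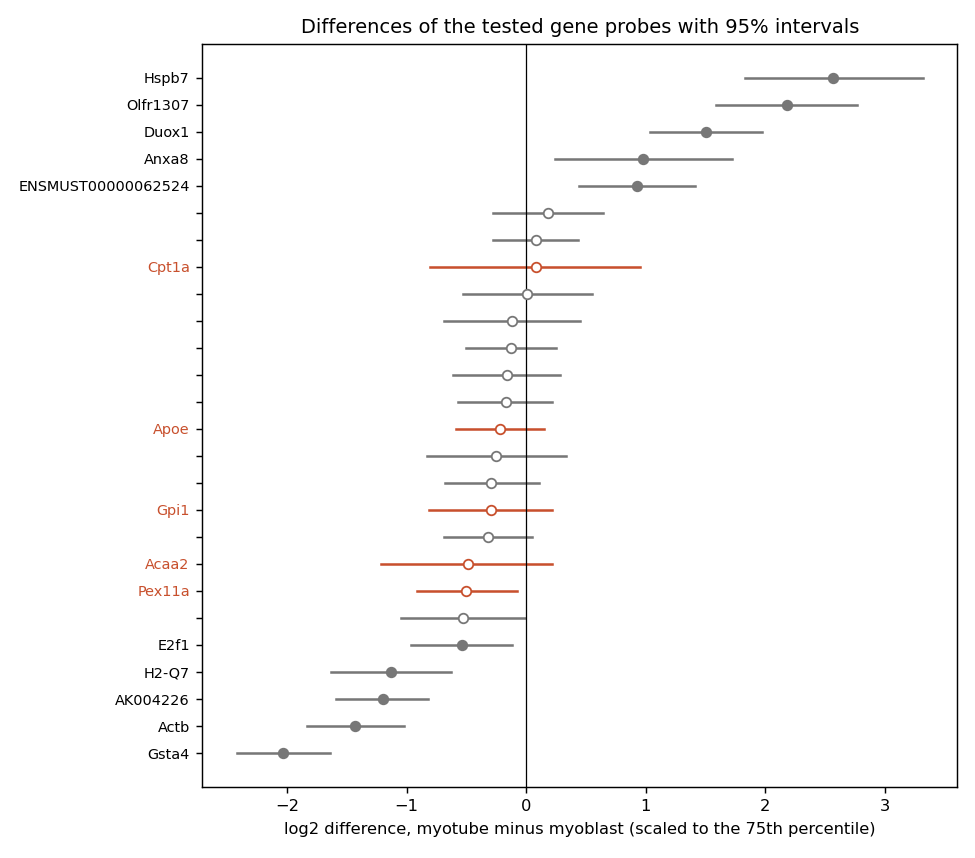
Log2 differences between myotubes and myoblasts (horizontal axis, values scaled to each array's 75th percentile) for the 26 tested gene probes, with 95% intervals of the limma fit. The 5 metabolism genes are in red and filled points passed the threshold, and only red and filled points are named: none of the 5 did, and Pex11a alone among them had an interval that lay below 0.

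Ppara, the receptor gene, was dim in every sample and came above background in myotubes only in part. Its processed signal was 3.70, 2.21 and 3.26 for myoblasts 1 to 3 and 4.01, 5.97 and 10.2 for myotubes 1 to 3. Every myotube array was brighter than every myoblast array, with myotube 1 close to myoblast 1 and myotube 3 well above all others. Before scaling the same order held for 11 of the 26 tested gene probes (42.3%), which do not include Ppara. Of 30 spots in a group, 2 were well above background in myoblasts and 18 in myotubes. By array these were 2, 0 and 0 of 10 spots in myoblasts and 1, 7 and 10 in myotubes. With a call of the probe when at least 50% of its spots passed, it was detected on no myoblast array and on 2 of 3 myotube arrays. More gene probes in general were above background on the myotube arrays. Of all 50, these were 23, 22 and 20 for myoblasts 1 to 3 and 26, 29 and 32 for myotubes 1 to 3. On 1 array, that of myotube 3, Ppara exceeded each of the 15 negative probes, the brightest of which lay between 5.40 and 8.58 over the arrays.

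The group means of Ppara were 3.06 ± 0.765 and 6.72 ± 3.14 (n = 3 arrays a group, SD), a log2 difference of 1.11 before scaling. The exact permutation p of 3 arrays against 3 cannot fall below 0.1. After scaling the difference was 0.57 and the groups overlapped, with values of -3.23, -4.15 and -3.23 in myoblasts and -3.27, -3.19 and -2.44 in myotubes. Myotubes 1 and 2 then lay at the level of myoblasts 1 and 3, and myotube 3 alone was well above them. With every gene probe tested regardless of brightness, Ppara had an adjusted p of 0.226 in limma. Its difference was -0.15 after normexp correction and -0.13 without background subtraction, so its sign turned with the handling of background. Within the first slide row it was 0.27. Set against the lowest detectable signal in myoblasts, the bound on its fold was not above 1, and no fold is given.

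**Figure D2:**
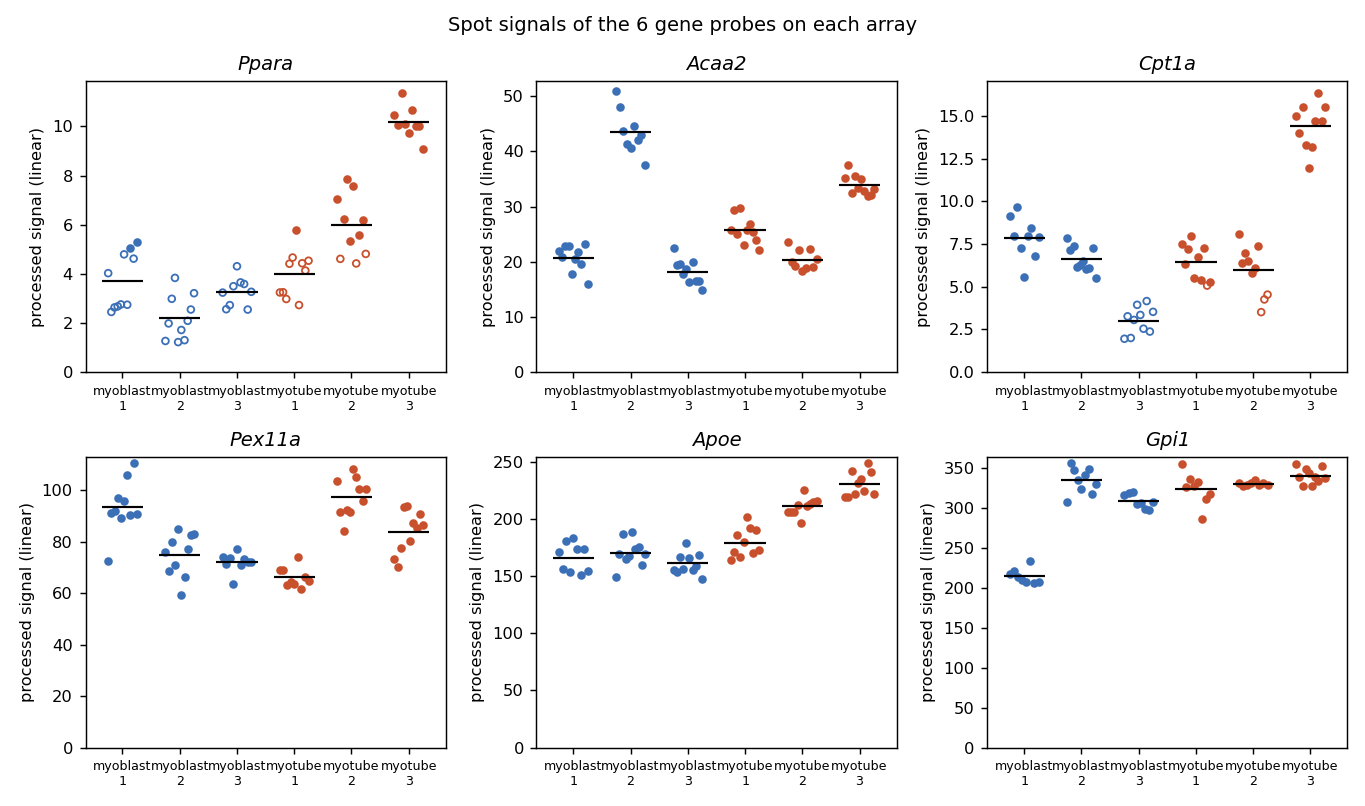
Processed signal of each spot (vertical axis, linear intensity from 0) on the 6 arrays (horizontal axis) for the 6 genes, with myoblasts in blue, myotubes in red and the array mean as a black line. Filled points were well above background and open points were not, and spots with an outlier mark are left out. Ppara went from 2 filled spots in myoblasts to 17 of those shown in myotubes, and the array means of myoblast 2 for Acaa2 and myotube 3 for Cpt1a lay above the others of their group.

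Cpt1a, whose product loads fatty acids onto carnitine for entry into mitochondria, varied more within each group than between the groups. Its processed signal was 7.85, 6.61 and 3.01 for myoblasts 1 to 3 and 6.42, 5.95 and 14.4 for myotubes 1 to 3. Myoblast 3 was the dimmest and had no spot above background, and myotube 3 was the brightest, with the remaining arrays close together in this signal. Relative to the percentile the values were -2.10, -2.47 and -3.37 in myoblasts and -2.57, -3.21 and -1.94 in myotubes, and myotube 2 then lay near myoblast 3. The probe was detected on 2 of 3 myoblast arrays and on all 3 myotube arrays, and it exceeded every negative probe on the arrays of myoblast 1 and myotube 3 alone. The log2 difference was 0.08 (SE 0.38, adjusted p = 0.883 in limma, n = 3 each), with a 95% interval from 0.576-fold to 1.93-fold. That interval does not exclude a moderate change in either direction. Without myotube 2 the difference was 0.39. Without myoblast 3 it was -0.29 and without myotube 3 it was -0.24, so its sign rested on single arrays. Its SD within groups, 0.64 on the log2 scale, was the widest of the 26 gene probes, whose median was 0.25.

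Acaa2 encodes the mitochondrial 3-ketoacyl-CoA thiolase, which cuts acetyl-CoA off the shortened fatty acid. Its processed signal was 20.7, 43.6 and 18.2 for myoblasts 1 to 3 and 25.7, 20.4 and 33.9 for myotubes 1 to 3. In this signal myoblast 2 was the brightest of all 6 arrays and the other myoblast arrays were at the bottom, with myotube 2, so the groups overlapped widely. Relative to the percentile the values were -0.69, 0.25 and -0.74 in myoblasts and -0.56, -1.39 and -0.70 in myotubes. The groups overlapped there too, with myoblast 2 alone at the top and myotube 2 alone at the bottom. The log2 difference was -0.49 (SE 0.32, adjusted p = 0.268 in limma), with a 95% interval from 0.433-fold to 1.17-fold. Without myoblast 2 it was -0.17, without myotube 2 it was -0.24, and within the first slide row -0.16. The mean processed signal was 27.5 ± 14 in myoblasts and 26.7 ± 6.78 in myotubes (n = 3 arrays a group, SD). The means of the unscaled log2 values, which weigh the bright array of myoblast 2 less, differed by 0.04, higher in myotubes. All 30 spots of each group were well above background, and the 9 spots used on the array of myoblast 2 ran from 37.6 to 51.0, above every Acaa2 spot of the other myoblast arrays. The high value of that array was therefore not set by a single spot.

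Pex11a, of peroxisome division, came nearest to the threshold. Its processed signal was 93.5, 74.9 and 72.0 for myoblasts 1 to 3 and 66.2, 97.3 and 83.8 for myotubes 1 to 3, so the groups overlapped before scaling. Relative to the 75th percentile the values were 1.48, 1.03 and 1.25 in myoblasts and 0.81, 0.86 and 0.60 in myotubes, and every myotube array was then below every myoblast array. The same holds, in that direction, for 26.9% of the tested gene probes (7 of 26). The log2 difference was -0.50 (SE 0.18, adjusted p = 0.0562 in limma), a 95% interval from 0.532-fold to 0.944-fold before adjustment over the probes. Its signal had a mean of 80.1 ± 11.7 in myoblasts and 82.4 ± 15.6 in myotubes (n = 3 arrays a group, SD), a log2 difference of 0.04 without scaling (adjusted p = 0.98 in limma). The unscaled means thus differed by less than the spread between arrays, while the percentile was 0.53 higher in myotubes on average. Myotube 1 differed from this, with the lowest Pex11a signal and a percentile of 37.6, against 30.2 to 36.4 in myoblasts. Pex11a passed the threshold in 6 of 23 alternative settings, among them scaling to the median (-0.58, adjusted p = 0.0303 in limma). Within the first slide row the difference was -0.44.

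Apoe had the steadiest values of the 6 genes, and the sign of its difference turned with the scaling. Its processed signal was 166, 170 and 161 for myoblasts 1 to 3 and 179, 211 and 230 for myotubes 1 to 3. Every myotube array was brighter than every myoblast array, with myotube 1 the nearest to them. The means were 166 ± 4.92 and 207 ± 25.8 (n = 3 arrays a group, SD), a log2 difference of 0.31 without scaling (adjusted p = 0.173 in limma). Of the 26 tested gene probes 11 (42.3%) had such unscaled groups, higher in myotubes with no overlap. Relative to the percentile the difference was -0.22 (SE 0.16, adjusted p = 0.345 in limma), with a 95% interval from 0.664-fold to 1.11-fold. The groups then overlapped, with 2.32, 2.22 and 2.41 in myoblasts and 2.25, 1.98 and 2.06 in myotubes, and myotube 1 among the myoblast values. Within the first slide row the difference was -0.07.

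Gpi1, the glycolytic isomerase, was nearly level in myotubes and low on 1 myoblast array before scaling, but not after it. Its processed signal was 215, 335 and 309 for myoblasts 1 to 3 and 324, 331 and 341 for myotubes 1 to 3. In this signal myoblast 1 stood apart from the other 5 arrays, which lay within 309 to 341. Relative to the percentile the values were 2.69, 3.20 and 3.36 in myoblasts and 3.11, 2.63 and 2.63 in myotubes. Myoblast 1 then lay close to myotubes 2 and 3, and the groups overlapped. The means were 286 ± 63.3 and 332 ± 8.27 (n = 3 arrays a group, SD), a log2 difference of 0.24 without scaling and of -0.29 relative to the percentile (SE 0.23, adjusted p = 0.355 in limma). The 95% interval of the scaled difference ran from 0.570-fold to 1.17-fold. Without myoblast 1 the scaled difference was -0.49, and within the first slide row it was 0.02. The spots used agreed closely, with coefficients of variation from 0.721% to 6.18% within an array once outlier spots were left out. On myoblast 1 the 8 spots used ran from 207 to 234, and the 2 left out were brighter, at 242 and 276. All 10 lay below every Gpi1 spot of the other myoblast arrays.

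**Figure D3:**
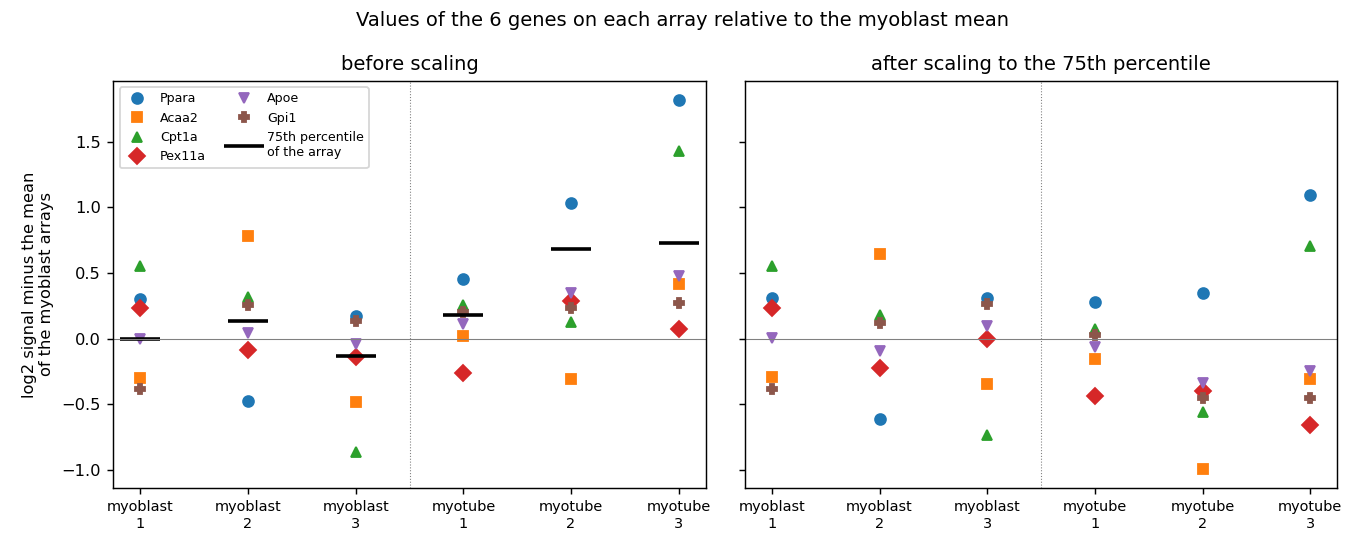
Log2 signal of the 6 genes on each array minus the mean of the myoblast arrays (vertical axis), before scaling on the left and after subtraction of each array's 75th percentile on the right. Black bars are that percentile, 0.53 higher in myotubes on average. Apoe lies above 0 on all myotube arrays on the left and below 0 on the right, and myotube 3 holds the highest values of Ppara and Cpt1a in both.

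Of the 360 spots of the 6 genes, 17 had an outlier mark and were left out, and none was saturated. Spots within an array varied most for Ppara, with coefficients of variation up to 40.9%, and least for Gpi1.

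Ratios between the genes on the same array do not depend on the scaling. Among the 10 pairs without Ppara, no log2 ratio separated the groups, where 190 of the 325 pairs of tested gene probes did (58.5%). The 325 include pairs with the probes that passed the threshold, none of which is a gene of this report. Several of the 10 hold Cpt1a or Acaa2, whose SDs within groups were 0.64 and 0.51, where the median of the tested gene probes was 0.25. The lack of separation thus does not show that these genes moved together. Acaa2 over Pex11a changed by 0.01 in its mean from myoblasts to myotubes, Apoe over Gpi1 by 0.07 and Pex11a over Apoe by -0.28, each with overlapping arrays. Of the 5 pairs with Ppara, 2 separated the groups. Ppara over Pex11a was -4.71, -5.18 and -4.48 in myoblasts and -4.08, -4.05 and -3.04 in myotubes, and Ppara over Apoe was -5.55, -6.37 and -5.64 against -5.51, -5.17 and -4.50. No myoblast array had Ppara well above background, so the ratios in myoblasts rest on a background-level signal.

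Over the 6 arrays, the gene probe with the profile nearest to Apoe was Gamt, an enzyme of creatine synthesis. Their scaled values, each centred on its own mean, differed by a root mean square of 0.063 on the log2 scale, where the median over the 22 named probes compared was 0.28. Both varied little, with SDs within groups of 0.12 for Apoe and 0.13 for Gamt, where the median of the tested gene probes was 0.25. Profiles that vary little lie near each other by this measure, whether or not they share a pattern. For Pex11a the nearest was the cell cycle factor E2f1 (0.165). The nearest to Acaa2 was Lhfp (0.359) and to Cpt1a Lhx1, a homeodomain factor (0.496), neither of them close.

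The 6 genes were the only ones with a probe among 117 genes of 5 metabolic lists. These had 3 of 40 genes of fatty acid oxidation and peroxisomes, 1 of 11 PPAR factors and partners, 1 of 27 genes of lipoproteins, cholesterol and lipid synthesis, 1 of 23 glycolytic genes and 0 of 16 genes of the citric acid cycle and respiration. No pathway can be described from so few. None of 21 myotube markers had a gene probe, and of 12 genes of myoblasts and cycling cells E2f1 had one. E2f1 passed the threshold at a log2 difference of -0.54 relative to the percentile (SE 0.19, adjusted p = 0.0452 in limma), and in 7 of 23 alternatives. Without scaling its difference was -0.01, and within the first slide row it was -0.25. Markers of fat, liver, macrophage and nerve cells had no gene probe either. Of the markers in these lists, E2f1 was thus the only 1 on which the labelled states could be checked, and gene probes outside the lists were not used for that.

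**Figure D4:**
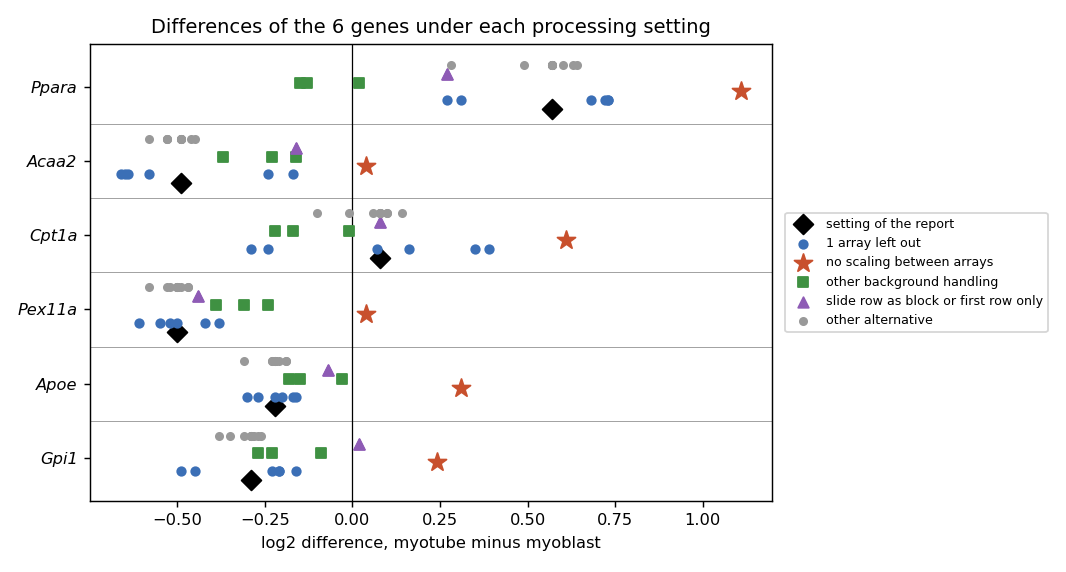
Log2 difference between myotubes and myoblasts (horizontal axis) for the 6 genes under the report's setting (black diamonds) and 23 alternatives, 22 for Cpt1a. Without scaling between arrays (stars) all 6 values lay above 0, and under the report's setting those of Acaa2, Pex11a, Apoe and Gpi1 lay below 0.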

How the data were processed

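RNA of 6 C2C12 cultures was measured on one-colour arrays (Cy3). The processed signal is an intensity that Feature Extraction 11.0.1.1 background-subtracted and detrended within the array, per the file headers, with no scaling between arrays. The raw spot and background columns are also deposited intensities. The deposited value table holds no gene probe and was not used. Outlier spots were dropped, log2 spot values averaged per probe, and each array's 75th percentile over non-control probes subtracted. A probe counted as above background where at least 50% of its spots did, and was tested where it was so on all 3 arrays of at least 1 group. Tests were 2-sided moderated fits (lmFit, eBayes; limma 3.58.1, R 4.3.3), adjusted over all gene probes tested. Symbols came from RefSeq transcripts (GRCm38.p6) for 44 of 50 gene probes. The array design names mm9, and the only coordinates given are those of the RefSeq promoter windows. The files hold no mean spot signal, so normexp (offset 50) used the median. Genes and lists were chosen with earlier results of these data known. Named are the 6 genes, list genes with a probe, and for each tested gene the nearest profile, 1 of which is not reported here. The number of arrays limits the precision.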

Additional observations from a re-analysis of the deposited data

How the results depend on the processing

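Ppara and Cpt1a lay near background, and the widest interval of the 5 tested genes was that of Cpt1a, 0.576-fold to 1.93-fold. Gene probes past the threshold numbered 7 to 12 over the 23 alternatives, against 10. Without scaling between arrays the log2 differences turned to 0.04 for Acaa2, 0.31 for Apoe, 0.24 for Gpi1 and 0.04 for Pex11a, and that of Ppara moved to 1.11, since the percentile was then no longer subtracted. Ppara also moved to -0.15 after normexp correction, -0.13 without background subtraction and 0.02 after normexp with quantile normalization. Cpt1a turned to -0.17, -0.22 and -0.01 in these settings, to -0.10 after quantile normalization and to -0.01 under median scaling, and lay between -0.29 and 0.39 with 1 array left out. Gpi1 turned to 0.02 with slide row as a block and in the first row only, as did Gamt, which was at 0.41 without scaling. Pex11a passed the threshold at -0.39 without background subtraction, -0.31 after normexp with quantile normalization, -0.58 under median scaling, -0.50 with a variance trend and when probes below background on any array were dropped, and -0.53 with array weights. The cause was not tested for the turns of Cpt1a, Gpi1 and Gamt or the passes of Pex11a. With the replicate number as a block 8 gene probes passed and none of the 5 tested genes did (Pex11a -0.50, adjusted p = 0.101 in limma). The titles share replicate numbers between the groups but state no pairing, so the main fit had no block. Same-numbered arrays deviated with correlations of -0.0191, 0.0175 and -0.0876, which cannot show whether the cultures were paired. With 1 array left out, differences lay between -0.66 and -0.17 for Acaa2, -0.61 and -0.38 for Pex11a, -0.30 and -0.16 for Apoe, -0.49 and -0.16 for Gpi1, and 0.27 and 0.73 for Ppara.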

Other observations

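Gamt, which makes creatine for the energy store of muscle, lies outside the metabolic lists and was singled out after its values were seen. Its unscaled log2 signal was 4.72, 4.80 and 4.67 for myoblasts 1 to 3 and 4.93, 5.10 and 5.38 for myotubes 1 to 3. It was thus higher on every myotube array, as were 11 of the 26 tested gene probes (42.3%), Gamt included. Relative to the 75th percentile its log2 difference was -0.13 (SE 0.17, adjusted p = 0.551 in limma, n = 3 each), with overlapping groups. Its sign turned with the scaling, as did those of Apoe, Acaa2, Pex11a and Gpi1. Gamt was named as the probe nearest to Apoe in these same values, so its likeness to Apoe was set by that choice.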
